A study of Homo sapiens with 66 samples.

Results

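The genes described here are 9 parts of the G1 cell cycle switch: the D-type cyclins CCND1, CCND2 and CCND3, their kinase partners CDK4 and CDK6, the CIP/KIP inhibitors CDKN1B (p27) and CDKN1C (p57), and the INK4 inhibitors CDKN2C (p18) and CDKN2D (p19). They were chosen by name, for their place in this pathway, from 58721 genes in each count table. A low-count filter kept 8 of them in each of 3 experiments, and CCND2 was not kept in any.

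A D-type cyclin binds CDK4 or CDK6, and the active pair phosphorylates the retinoblastoma protein, which then releases E2F transcription factors to switch on genes of DNA replication. Growth factor and RAS-RAF-MEK-ERK signals act on this switch largely through CCND1, whose transcription depends on ERK in cells with mutant BRAF. INK4 proteins bind the kinases and keep the cyclin out, whereas CIP/KIP proteins bind cyclin-kinase complexes and inhibit the later kinase CDK2 in particular.

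The cells were A375, a human melanoma line with mutant BRAF, and poly(A) RNA of 66 libraries in 22 groups of 3 was sequenced. Mediator relays signals of bound transcription factors to the RNA polymerase II machinery; MED12 belongs to its detachable kinase module, MED19 to its middle module and MED23 to its tail. In the Mediator experiment (14 groups), cells with either of 2 guides against MED12, MED19 or MED23, or with a guide against GFP as the control, received 1 µM vemurafenib, an inhibitor of mutant BRAF, or DMSO for 24 h. In the SOX10 experiment (4 groups), cells with guide 1 against MED23, or with the GFP guide, overexpressed SOX10, a neural crest and melanocyte transcription factor, or carried an empty vector. In the HDAC3 experiment (4 groups), cells lacked both HDAC3 and MED23 (double knockout), HDAC3 alone, MED23 alone, or neither; HDAC3 removes acetyl groups from histones as a subunit of NCOR and SMRT corepressors, and no drug is given in the labels of these 12 libraries. All groups are thus derivatives of 1 cell line, and the labels do not say whether a knockout population is a clone or a pool, nor whether replicates are separate cultures, so p-values measure the spread between these libraries.

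Levels are given in CPM, a gene's counts scaled to library size with TMM factors. Library totals were 65.9 to 211.8 M in the Mediator experiment, 24.9 to 30.8 M in the SOX10 experiment and 58.8 to 106.2 M in the HDAC3 experiment. Of the melanoma markers, SOX10 averaged 70.4 to 1053 CPM and MITF 40.9 to 184.6 CPM over the 22 groups, whereas TYR averaged at most 0.324 CPM and MLANA at most 1.90 CPM. The 8 melanoma markers together gave 204.1 to 3410 CPM in the Mediator experiment, lowest with MED12 guide 2 in DMSO and highest in control cells under vemurafenib. The 5 markers of blood, epithelium, endothelium and liver together gave 0.846 to 3.28 CPM over all groups, with ALB, CDH1 and EPCAM each under 1 CPM in every group. MED12 mRNA averaged 29.5 CPM in MED12 knockout and 119.8 CPM in control cells in DMSO, MED19 13.0 CPM in MED19 knockout and 27.0 CPM in control cells, and MED23 17.1 CPM in MED23 knockout and 37.0 CPM in control cells. HDAC3 averaged 29.6 CPM in HDAC3 knockout and 57.9 CPM in control cells. SOX10 averaged 600.2 CPM in control cells with the SOX10 construct and 524.9 CPM with empty vector.

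Promoter sequence is shown for 3 of the 6 members that have an entry in the RefSeq table. The levels of all 6 moved with the drug in control cells, and the only 2 windows with a motif match are among those shown. Each window is the 250 bases before a RefSeq start on GRCh38.p14, read 5′ to 3′ on the gene's strand, which is minus for all 3. The CDKN2D window lies at chr19:10568980-10569229, that of CCND3 (start 2 of 3) at chr6:41941809-41942058 and that of CDK6 (start 1 of 2) at chr7:92836574-92836823. Capitals mark a match to TTTNNCGC (a loose pattern used for E2F, N being any base) in CDKN2D and to CCGGAAG (used for ETS) in CCND3. Both strands were searched, and binding was not tested.
CDKN2D: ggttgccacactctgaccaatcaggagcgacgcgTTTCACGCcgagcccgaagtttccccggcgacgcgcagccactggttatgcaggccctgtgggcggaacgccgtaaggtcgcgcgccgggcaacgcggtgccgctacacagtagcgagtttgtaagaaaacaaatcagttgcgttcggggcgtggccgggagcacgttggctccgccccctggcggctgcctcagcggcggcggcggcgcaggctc
CCND3: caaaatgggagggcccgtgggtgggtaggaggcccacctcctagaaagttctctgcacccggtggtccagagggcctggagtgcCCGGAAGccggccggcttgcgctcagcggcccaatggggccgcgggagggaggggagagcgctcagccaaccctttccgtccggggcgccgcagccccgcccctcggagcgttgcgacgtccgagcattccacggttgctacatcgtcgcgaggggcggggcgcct
CDK6: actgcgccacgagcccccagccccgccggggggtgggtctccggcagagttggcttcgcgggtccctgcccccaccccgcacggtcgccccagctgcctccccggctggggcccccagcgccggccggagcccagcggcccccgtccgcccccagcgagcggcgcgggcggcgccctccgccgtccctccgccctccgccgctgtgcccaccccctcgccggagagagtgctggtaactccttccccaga
Of 35116 windows of the same length, 5.92% held TTTNNCGC and 8.52% CCGGAAG. The CDK6 window held neither, nor TGANTCA (AP-1, in 6.57% of windows) or TGACGTCA (CRE, in 1.65%). Over the 11 windows of the 6 members with an entry (CCND3, CDK4, CDK6, CDKN1B, CDKN2C and CDKN2D), the 2 marked matches were the only ones.

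In control cells in DMSO, levels per kb of exon put CCND1 first at 96.9 ± 1.14 CPM per kb (SD, n = 3), followed by CDK4 at 70.7 ± 0.426 and CDK6 at 37.1 ± 1.20. The 4 inhibitors among the members were lower on the same scale, at 20.6 ± 0.515 CPM per kb for CDKN1B, 20.6 ± 0.635 for CDKN2C, 10.0 ± 0.246 for CDKN2D and 7.82 ± 0.147 for CDKN1C. CCND3 stood at 9.04 ± 0.376 CPM per kb. CCND1 thus made up 91.5% ± 0.245 of D-type cyclin mRNA per kb, and CDK4 65.6% ± 0.866 of CDK4 and CDK6 mRNA per kb. Without scaling to exon length, CCND1 made up 89.9% and CDK4 33.0%, so which kinase had the larger share depended on that scaling.

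The first comparison is that of the drug itself in control cells. Vemurafenib lowered both expressed D-type cyclins, both kinases and CDKN2D, and raised CDKN1B, CDKN1C and CDKN2C. All 8 members tested were called at an adjusted p under 0.05 (edgeR's quasi-likelihood test, Benjamini-Hochberg over all genes tested), 3 higher and 5 lower, where 66.2% of 27453 genes were called (35.8% higher, 30.3% lower). The median log2 fold change was -0.55 over the 8 members and 0.11 over all genes. In bulk RNA, fewer cells of a kind and less RNA per cell cannot be told apart.

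CCND1 had 34.3, 35.5 and 33.4 CPM under vemurafenib, against 468, 473 and 463 CPM in DMSO. The drug libraries lay far below all DMSO libraries, at 7.35% of their level, a log2 fold change of -3.77 ± 0.032 (SE; adjusted p = 1.9e-54), and 2.43% of all genes changed by as much or more. CCND3, the D-type cyclin best known from lymphoid cells, had 28.7, 27.3 and 28.9 CPM under vemurafenib, against 51.2, 55.0 and 51.2 CPM in DMSO. Its groups did not overlap either, with a smaller log2 fold change of -0.89 ± 0.046 (adjusted p = 6.7e-23).

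CDK6 had 98.9, 98.6 and 97.6 CPM under vemurafenib, against 461, 438 and 465 CPM in DMSO. This kinase fell to 21.7% of the DMSO level, a log2 fold change of -2.21 ± 0.035 (adjusted p = 7.8e-44). CDK4 had 193, 191 and 200.0 CPM under vemurafenib, against 224, 226 and 223 CPM in DMSO. Its drug libraries were all lower, but the log2 fold change was -0.20 ± 0.028 (adjusted p = 1.6e-08). CDK4 shares 1369 of its 3168 exonic bases with TSPAN31 on the opposite strand, and no source at hand says whether counting used strand; TSPAN31 averaged 75.7 CPM under vemurafenib and 32.6 CPM in DMSO.

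Among the CIP/KIP inhibitors, CDKN1C had 39.0, 34.7 and 38.6 CPM under vemurafenib, against 19.1, 19.8 and 19.2 CPM in DMSO. Its level was 193% of that in DMSO (log2 fold change 0.95 ± 0.054, adjusted p = 4.9e-21). CDKN1B had 62.8, 63.7 and 63.3 CPM under vemurafenib, against 58.2, 56.5 and 59.4 CPM in DMSO. The groups did not overlap, and the rise was small (log2 fold change 0.13 ± 0.031, adjusted p = 4.2e-04), near the median of all genes of 0.11.

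The 2 INK4 inhibitors among the members moved in opposite directions. CDKN2C had 142.0, 143 and 139.7 CPM under vemurafenib, against 68.5, 70.4 and 66.2 CPM in DMSO. It reached 207% of the DMSO level (log2 fold change 1.05 ± 0.030, adjusted p = 4.1e-33), with every drug library above every DMSO library. CDKN2D had 6.49, 6.33 and 6.10 CPM under vemurafenib, against 14.7, 15.4 and 15.1 CPM in DMSO. It fell with a log2 fold change of -1.26 ± 0.069 (adjusted p = 1.3e-21), and no libraries overlapped.

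Of 15 further genes of the pathway (cyclin E, CDK2, CDC25A, the retinoblastoma family, E2F1 to E2F3, CDKN1A, SKP2, CKS1B, CDC37 and AMBRA1), 3 rose and 11 fell with the drug in control cells. Their median log2 fold change was -1.19. The lowest was E2F2, an activator E2F, at -4.37 (adjusted p = 5.1e-38), and the highest CDKN1A, the p21 inhibitor, at 0.72 (adjusted p = 2.8e-25). PTPRC, a blood cell marker, averaged 2.32 CPM in the drug libraries and 0.0744 CPM in the DMSO libraries of control cells, while the 5 other-tissue markers together gave 3.12 and 1.19 CPM; their part in the result was not tested.

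**Figure D1:**
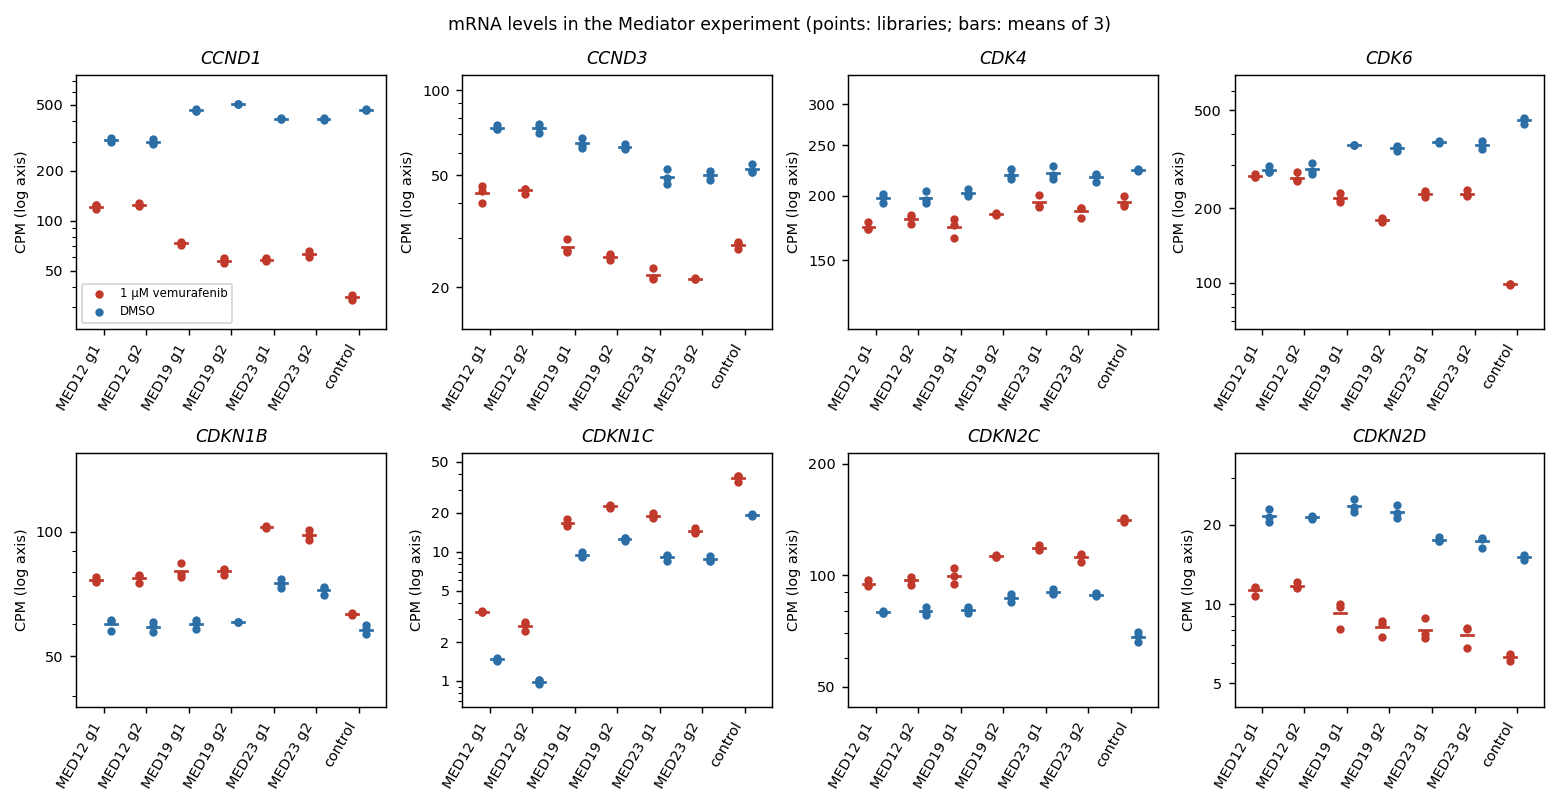
CPM of 8 members (log axes) in each library of the Mediator experiment, by guide (g1 and g2, guide 1 and guide 2), with vemurafenib in red left of DMSO in blue and bars for means of 3. CCND1 and CDK6 fell to 34.4 and 98.4 CPM in control cells under the drug, and stayed higher than that in every knockout under the drug.

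Loss of MED12 in DMSO lowered CCND1, CDK4, CDK6 and CDKN1C and raised CCND3, CDKN2C and CDKN2D. It thus called 7 of 8 members, 3 higher and 4 lower, where 54.9% of all genes were called (27.9% higher, 27.0% lower). CDKN1C had 0.940, 1.23 and 1.52 CPM as lowest, median and highest of 6 MED12 knockout libraries, against 19.1, 19.8 and 19.2 CPM in control cells. The knockout libraries stood at 6.23% of the control level, a log2 fold change of -4.00 ± 0.057 (adjusted p = 1.8e-45), and 1.74% of genes changed by as much or more. CCND1 had 291.6, 303.3 and 314.1 CPM as lowest, median and highest in MED12 knockout, against 468, 473 and 463 CPM in control cells. That was a log2 fold change of -0.63 ± 0.023 (adjusted p = 3.3e-28), and CDK6 changed by -0.66 ± 0.028 (adjusted p = 9.1e-26). CCND3 went the other way, with 70.5, 73.6 and 75.9 CPM in MED12 knockout, against 51.2, 55.0 and 51.2 CPM in control cells (log2 fold change 0.49 ± 0.039, adjusted p = 1.3e-15). CDKN2D changed by 0.51 ± 0.056, CDKN2C by 0.23 ± 0.027 and CDK4 by -0.18 ± 0.024 on the log2 scale. CDKN1B, at 0.03 ± 0.027, was not called (adjusted p = 0.30). The summed melanoma markers were 256.7 and 204.1 CPM with MED12 guides 1 and 2 and 1478 CPM in control cells, in DMSO. In the same order, SOX10 (137.2, 105.8 and 770.5 CPM), ERBB3 (47.6, 29.6 and 577.8), S100B (6.28, 4.46 and 50.8) and DCT (0.118, 0.0388 and 2.38) were far lower. MITF (63.5, 62.2 and 73.8) and PMEL (0.562, 0.520 and 0.804) were lower by less. MLANA (1.32, 1.41 and 1.37) hardly differed, and TYR (0.0201, 0 and 0.0181) was near the floor. The part of these markers in the CDKN1C result was not tested.

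Loss of MED19 in DMSO lowered CDKN1C, CDK4 and CDK6 and raised CCND3, CDKN2C and CDKN2D. It called 6 of 8 members, 3 higher and 3 lower, where 40.6% of all genes were called (20.4% higher, 20.2% lower). CCND1 had 459.7, 487.3 and 508.0 CPM as lowest, median and highest in MED19 knockout, against 468, 473 and 463 CPM in control cells. The libraries overlapped and the difference was not called (log2 fold change 0.05 ± 0.024, adjusted p = 0.081). It was called with only the groups compared in the fit (0.05, adjusted p = 0.0092) and with guide 2 alone (0.11, adjusted p = 7.2e-04), but not with guide 1 alone (-0.01, adjusted p = 0.81). CDKN1C had 9.08, 11.1 and 12.8 CPM in MED19 knockout, against 19.1, 19.8 and 19.2 CPM in control cells (log2 fold change -0.83 ± 0.048, adjusted p = 4.1e-20). CDKN2D rose by 0.61 ± 0.057, CDKN2C by 0.30 ± 0.027 and CCND3 by 0.28 ± 0.039 on the log2 scale. CDK6 fell by 0.35 and CDK4 by 0.09. The libraries of CDK4 overlapped, and its change was -0.15 with guide 1 alone (adjusted p = 2.5e-05) and -0.03 with guide 2 alone (adjusted p = 0.49).

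Loss of MED23 in DMSO raised CDKN1B, CDKN2C and CDKN2D and lowered CCND1, CDK6 and CDKN1C. That was 6 of 8 members called, 3 higher and 3 lower, where 36.9% of all genes were called (18.4% higher, 18.5% lower). CDKN1B, the p27 inhibitor, had 70.4, 73.4 and 77.0 CPM as lowest, median and highest in MED23 knockout, against 58.2, 56.5 and 59.4 CPM in control cells. Those libraries did not overlap, with a log2 fold change of 0.34 ± 0.027 (adjusted p = 2.8e-15). CDKN1C had 8.45, 8.87 and 9.42 CPM in MED23 knockout, against 19.1, 19.8 and 19.2 CPM in control cells (log2 fold change -1.12 ± 0.048, adjusted p = 3.0e-25). CCND1 fell by 0.19 on the log2 scale and CDK6 by 0.31, while CDKN2C rose by 0.39 and CDKN2D by 0.21. The 3 subunit comparisons share the same 3 control libraries.

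Of the 15 pathway genes in DMSO, 4 rose and 7 fell after loss of MED12, 4 rose and 6 fell with MED19 loss, and 2 rose and 10 fell with MED23 loss. CDKN1A was the highest in each, with log2 fold changes of 0.92, 0.37 and 0.32 for MED12, MED19 and MED23. E2F2 was the lowest with MED12 loss (-0.68) and MED23 loss (-0.44), and SKP2, a ligase subunit that targets p27, with MED19 loss (-0.23).

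Under vemurafenib the knockouts differed from control cells in another way: CCND1 and CDK6 were higher and CDKN2C lower in all 3. MED12 loss called 8 of 8 members, 5 higher and 3 lower, where 62.2% of all genes were called (32.5% higher, 29.6% lower). MED19 loss called 7 of 8, 4 higher and 3 lower, where 43.7% were called (23.1% higher, 20.7% lower), and MED23 loss also called 7 of 8, 4 higher and 3 lower, where 47.3% were called (24.6% higher, 22.7% lower).

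CCND1 under the drug had 117.7, 123.6 and 127.2 CPM as lowest, median and highest in MED12 knockout, against 34.3, 35.5 and 33.4 CPM in control cells. That was 358% of the control level, a log2 fold change of 1.84 ± 0.028 (adjusted p = 4.9e-45). In MED19 knockout the lowest, median and highest were 55.2, 65.5 and 74.5 CPM (log2 fold change 0.92 ± 0.027, adjusted p = 5.7e-32), and in MED23 knockout 56.8, 59.9 and 65.5 CPM (0.81 ± 0.027, adjusted p = 5.5e-30). Every knockout library was above every control library under the drug, and every one was below its own DMSO libraries.

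CDK6 under the drug had 258.0, 268.2 and 279.9 CPM as lowest, median and highest in MED12 knockout, against 98.9, 98.6 and 97.6 CPM in control cells (log2 fold change 1.45 ± 0.031, adjusted p = 3.3e-38). In MED19 knockout these values were 175.6, 197.0 and 230.4 CPM, and in MED23 knockout 222.9, 227.9 and 237.7 CPM. The log2 fold changes were 1.01 ± 0.031 for MED19 (adjusted p = 2.3e-31) and 1.22 ± 0.031 for MED23 (adjusted p = 8.4e-35). CCND3 separated the subunits: its log2 fold change under the drug was 0.63 ± 0.041 with MED12 loss (adjusted p = 5.9e-19), -0.08 ± 0.041 with MED19 loss (adjusted p = 0.11, or 0.034 without guide 1 replicate 1 and 0.017 with guide 2 alone) and -0.38 ± 0.042 with MED23 loss (adjusted p = 7.1e-11). CDK4 fell slightly with MED12 loss (-0.13 ± 0.025) and MED19 loss (-0.12 ± 0.025) and was not called with MED23 loss (-0.03 ± 0.025, adjusted p = 0.30).

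CDKN2C under the drug had 93.5, 95.8 and 99.2 CPM as lowest, median and highest in MED12 knockout, against 142.0, 143 and 139.7 CPM in control cells. All knockout libraries were lower, with a log2 fold change of -0.56 ± 0.025 (adjusted p = 6.3e-25). The log2 fold change of CDKN2C was -0.42 ± 0.026 with MED19 loss (adjusted p = 2.9e-19) and -0.29 ± 0.026 with MED23 loss (adjusted p = 6.6e-14). CDKN1C had 2.44, 3.14 and 3.50 CPM in MED12 knockout under the drug, against 39.0, 34.7 and 38.6 CPM in control cells. Its log2 fold changes were -3.63 ± 0.049 in MED12, -0.94 ± 0.046 in MED19 and -1.17 ± 0.047 in MED23 knockout. CDKN1B rose in all 3 knockouts under the drug, by 0.28, 0.34 and 0.67 for MED12, MED19 and MED23 on the log2 scale, and CDKN2D by 0.87, 0.47 and 0.31.

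**Figure D2:**
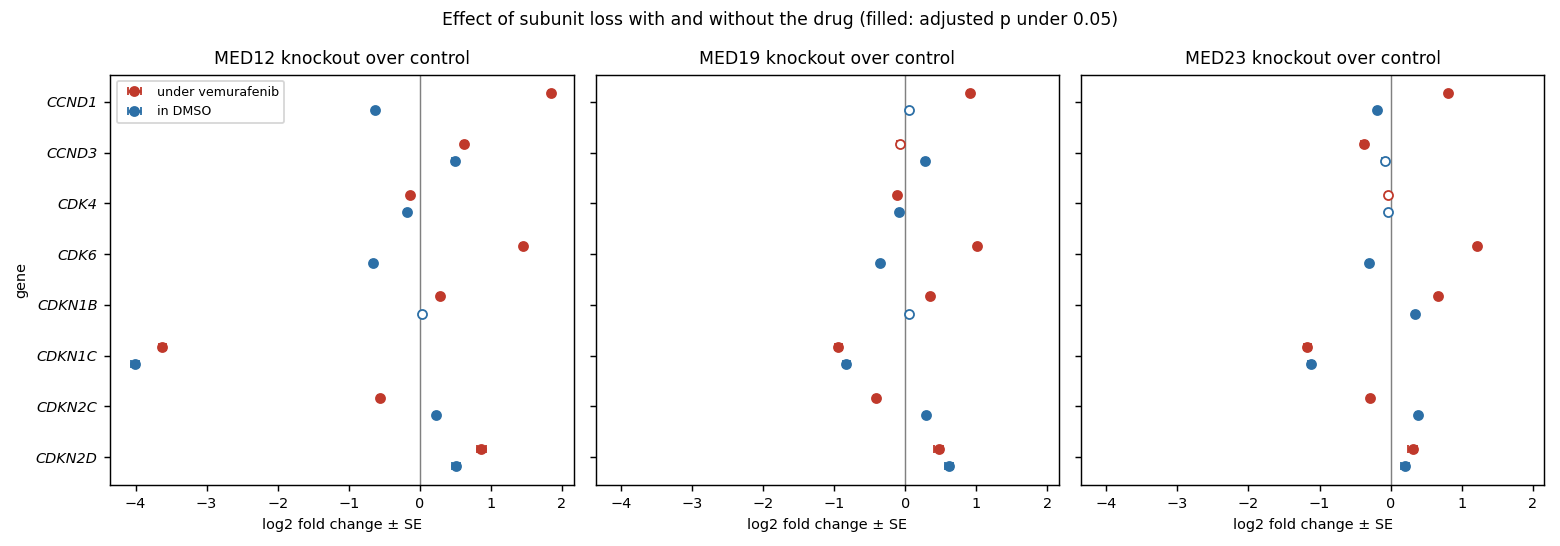
Log2 fold change ± SE of each member, knockout over control, under vemurafenib (red) and in DMSO (blue), for MED12, MED19 and MED23 on 1 common axis; filled points have an adjusted p under 0.05. CCND1 under the drug is at 1.84, 0.92 and 0.81, and CDKN1C lies left of 0 in all 6 comparisons.

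The difference of these effects, that is the drug's log2 fold change in knockout minus that in control cells, was tested directly. The drug changed CCND1 by -1.30 in MED12, -2.90 in MED19 and -2.76 in MED23 knockout, against -3.77 in control cells, all on the log2 scale. The differences were 2.47 ± 0.036 for MED12 (adjusted p = 2.3e-44), 0.86 ± 0.036 for MED19 (adjusted p = 2.0e-25) and 1.00 ± 0.036 for MED23 (adjusted p = 4.4e-28). It changed CDK6 by -0.10, -0.84 and -0.68 in the same 3 knockouts, against -2.21 in control cells. The CDK6 differences were 2.11 ± 0.042, 1.36 ± 0.042 and 1.53 ± 0.042 (adjusted p = 5.2e-39, 1.4e-30 and 7.1e-33), and in MED12 knockout the drug and DMSO libraries overlapped.

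The rise of CDKN2C with the drug was smaller in every knockout: 0.26, 0.34 and 0.37 in the MED12, MED19 and MED23 knockouts, against 1.05 in control cells. The differences were -0.79 ± 0.037, -0.71 ± 0.037 and -0.68 ± 0.037 (adjusted p = 6.7e-24, 1.8e-21 and 6.2e-21). CDKN1B rose more with the drug in the knockouts, by 0.38, 0.41 and 0.45 against 0.13 in control cells, with differences of 0.25, 0.29 and 0.32. CDKN1C rose by 1.33 in MED12 knockout against 0.95 in control cells (difference 0.38 ± 0.080, adjusted p = 7.6e-05), and its DMSO libraries in MED12 knockout had 0.940 to 1.52 CPM. Its differences with MED19 (-0.11 ± 0.068, adjusted p = 0.24) and MED23 (-0.05 ± 0.069, adjusted p = 0.62) were not called. With single guides the MED23 value was 0.12 for guide 1 (adjusted p = 0.29) and -0.23 for guide 2 (adjusted p = 0.026).

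CCND3 fell more with the drug in MED19 and MED23 knockouts than in control cells (differences -0.36 ± 0.056 and -0.30 ± 0.057, adjusted p = 5.3e-07 and 2.6e-05). With MED12 the difference was 0.14 ± 0.055 (adjusted p = 0.033), and it lost its call with guide 1 alone (adjusted p = 0.12) and without any 1 of 4 libraries, with an adjusted p of up to 0.14: a DMSO and a drug library of the control cells, each replicate 2, MED12 guide 1 under the drug replicate 2, and MED12 guide 2 in DMSO replicate 3. The difference of CDKN2D was called with MED12 (0.35 ± 0.083, adjusted p = 3.1e-04), and those with MED19 and MED23 were not called (adjusted p = 0.22 and 0.40). CDK4 had differences of 0.05, -0.03 and 0.00 on the log2 scale, none of them called, but the MED12 difference was called with DESeq2's size factors in edgeR (0.09, adjusted p = 0.038) and with the DESeq2 Wald test (0.09, adjusted p = 0.033). In all, 7 of 8 members differed with MED12, 6 upward and 1 downward, where 49.0% of genes did (24.9% upward, 24.2% downward). With MED19 it was 5 of 8 (3 upward, 2 downward), where 32.6% of genes did (17.4% and 15.2%), and with MED23 5 of 8 (3 upward, 2 downward), where 34.8% did (18.5% and 16.2%).

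Within the knockouts themselves, the drug called all 8 members in the same directions as in control cells: 3 higher and 5 lower. The share of all genes called was 63.2% in MED12 knockout (32.4% higher, 30.8% lower), 70.3% in MED19 knockout (37.7% higher, 32.6% lower) and 69.5% in MED23 knockout (37.4% higher, 32.1% lower). Of the 15 pathway genes, 11, 12 and 12 fell with the drug in the MED12, MED19 and MED23 knockouts and 2, 3 and 3 rose. Under the drug, MED12 loss raised 11 of them and lowered 3, with E2F2 highest at a log2 fold change of 2.64 (adjusted p = 2.4e-29). MED19 loss raised 6 and lowered 5, with CKS1B, a cofactor of SKP2, highest at 0.80, and MED23 loss raised 5 and lowered 8, with CDC25A, a phosphatase that activates CDK2, highest at 0.66.

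The knockouts were also compared with one another. In DMSO, MED12 against MED23 loss called 8 of 8 members, 2 higher and 6 lower, where 50.8% of genes were called (25.9% higher, 24.9% lower). MED12 against MED19 loss called 6, 1 higher and 5 lower, where 46.8% were called (23.8% and 22.9%), and MED19 against MED23 loss called 7, 4 higher and 3 lower, where 33.7% were called (17.5% and 16.1%). Under vemurafenib, MED12 against MED23 loss called 8, 4 higher and 4 lower (55.7% of genes, 29.9% higher and 25.8% lower). MED12 against MED19 loss called 7 there, 4 higher and 3 lower (55.3%, 29.5% and 25.8%), and MED19 against MED23 loss 8, 4 higher and 4 lower (36.5%, 19.0% and 17.6%). CCND1 under the drug was higher with MED12 loss than with MED23 loss by 1.03 ± 0.021 and than with MED19 loss by 0.93 ± 0.020, whereas in DMSO it was lower by 0.44 and by 0.68. CCND3 was higher with MED12 loss than with MED23 loss by 0.57 ± 0.031 in DMSO and by 1.00 ± 0.034 under the drug. CDKN1C was lower with MED12 loss than with MED23 loss by a log2 fold change of -2.88 ± 0.054 in DMSO and -2.45 ± 0.045 under the drug. CDKN1B was highest with MED23 loss: MED12 knockout differed from it by -0.31 ± 0.022 in DMSO and -0.38 ± 0.022 under the drug, and MED19 knockout by -0.29 ± 0.022 and -0.32 ± 0.022.

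Of 48 comparisons of guide 2 with guide 1 (8 members, 3 subunits, with and without the drug), 13 were called, and the largest was CDKN1C with MED12 guides in DMSO, which averaged 0.989 CPM with guide 2 and 1.47 CPM with guide 1 (log2 fold change -0.57 ± 0.097, adjusted p = 2.9e-04). Of the 13 calls, 9 were between MED19 guides, where 10.2% of genes were called in DMSO and 11.7% under the drug; between the guides of MED12 and MED23 the share was 0.0328% to 2.02%. CCND1 under the drug averaged 57.4 ± 2.05 CPM with MED19 guide 2 and 73.4 ± 1.39 CPM with guide 1 (log2 fold change -0.36 ± 0.029, adjusted p = 2.6e-13), and CDK6 averaged 179 CPM and 220.1 CPM. The comparison of MED19 with MED23 loss under the drug turned with the guide for CCND1: 0.10 ± 0.021 with both guides, but -0.13 with guide 2 alone.

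**Figure D3:**
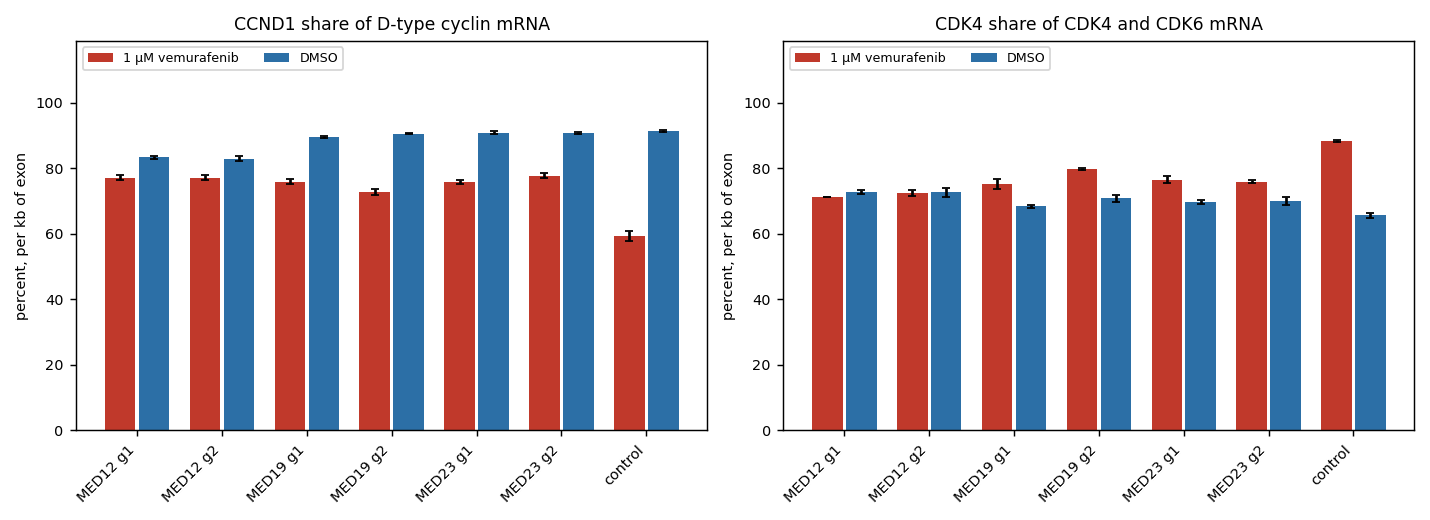
Share of CCND1 in D-type cyclin mRNA and of CDK4 in CDK4 plus CDK6 mRNA, both per kb of exon, with vemurafenib (red) left of DMSO (blue); bars are means and whiskers SD of 3 libraries. CCND1 makes up 59.3% in control cells under the drug and 72.8% to 77.8% in the knockouts under it.

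Together these changes shifted the shares of the cyclin and kinase mRNAs in their pools. Per kb, CCND1 and CDK4 still held the largest share in every group of the Mediator experiment. In control cells CCND1 was 59.3% ± 1.47 of D-type cyclin mRNA per kb under vemurafenib and 91.5% ± 0.245 in DMSO. Under the drug it was 77.2% with both MED12 guides, 76.0% and 72.8% with MED19 guides and 75.9% and 77.8% with MED23 guides. CDK4 was 88.4% ± 0.317 of CDK4 and CDK6 mRNA in control cells under vemurafenib and 65.6% ± 0.866 in DMSO. In MED12 knockout its share was 71.3% and 72.4% under the drug with guides 1 and 2 and 72.8% and 72.6% in DMSO. The SD over 3 libraries was 0.0122 and 0.945 under the drug and 0.682 and 1.52 in DMSO. In MED19 knockout the share of CDK4 was 75.3% and 79.9% under the drug and 68.4% and 70.8% in DMSO, and in MED23 knockout 76.6% and 75.9% under the drug and 69.7% and 69.9% in DMSO. Without scaling to exon length, the CDK4 share in control cells was 66.4% under the drug and 33.0% in DMSO.

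In the SOX10 experiment, extra SOX10 lowered CCND1 and CDKN2C in both backgrounds, and moved CDKN1C in opposite directions. In MED23 knockout it called 5 of 8 members, 2 higher and 3 lower, where 41.9% of 18009 genes were called (21.2% higher, 20.7% lower). In control cells it called 4 of 8, 1 higher and 3 lower, where 22.6% were called (11.6% higher, 11.0% lower). CDKN1C had 16.2, 17.4 and 17.5 CPM in MED23 knockout with SOX10, against 9.98, 10.9 and 9.93 CPM in MED23 knockout with empty vector. This was a rise of 0.73 ± 0.065 on the log2 scale (adjusted p = 1.4e-10). In control cells the gene had 11.2, 10.5 and 11.2 CPM with SOX10, against 17.1, 17.4 and 18.7 CPM with empty vector, a fall with a log2 fold change of -0.69 ± 0.064 (adjusted p = 9.7e-10). The difference of the 2 responses was 1.42 ± 0.092 (adjusted p = 1.5e-12), and 1.09% of genes differed by as much or more.

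CCND1 had 345, 320 and 319 CPM in MED23 knockout with SOX10, against 414, 408 and 422 CPM with empty vector (log2 fold change -0.34 ± 0.033, adjusted p = 9.8e-10). In control cells it had 316, 318 and 306 CPM with SOX10, against 452, 464 and 441 CPM with empty vector (-0.53 ± 0.033, adjusted p = 1.2e-13). The 2 falls differed by 0.19 ± 0.046 (adjusted p = 0.0040). CDK6 had 463, 398 and 404 CPM in MED23 knockout with SOX10, against 323, 296 and 314 CPM with empty vector (0.44 ± 0.044, adjusted p = 1.7e-09). In control cells the rise of CDK6 was 0.12 ± 0.044 (adjusted p = 0.045), and it lost its call without any 1 of 4 of the 6 libraries compared (adjusted p of 0.060 to 0.26; empty vector replicates 1 and 3, SOX10 replicates 1 and 2). The difference was 0.32 ± 0.062 (adjusted p = 4.8e-04).

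CDKN2C fell with SOX10 by 0.32 on the log2 scale in MED23 knockout and by 0.20 in control cells. CDKN2D fell by 0.35 in MED23 knockout (adjusted p = 3.1e-04) and changed by -0.17 in control cells (adjusted p = 0.12). CCND3, CDK4 and CDKN1B were not called in either background, but CDK4 was in MED23 knockout without SOX10 replicate 1 (0.12, adjusted p = 0.0040), and CDKN1B in control cells without SOX10 replicate 3 (0.13, adjusted p = 0.039). The same omissions also gave a call to the difference of CDK4 (0.18, adjusted p = 0.0028) and of CDKN1B (-0.20, adjusted p = 0.025). Among all 8 members, 3 responses differed between the backgrounds, all upward, where 14.7% of genes did (7.64% upward, 7.04% downward). Of the 15 pathway genes, SOX10 raised 9 and lowered 1 in MED23 knockout, with E2F3 highest at 0.32, and raised 2 and lowered 2 in control cells. SOX10 itself averaged 600.2 CPM in control cells with the construct and 524.9 CPM without it, and 429.2 and 246.2 CPM in MED23 knockout. The melanoma markers together, SOX10 included, gave 1078 and 539.6 CPM there. Of the others, ERBB3 (511.5 and 203.1 CPM), S100B (77.1 and 23.0) and DCT (4.04 and 0.197) were higher with the construct. MITF (54.6 and 65.1 CPM), MLANA (0.941 and 1.42), PMEL (0.479 and 0.548) and TYR (0 and 0.0250) were lower.

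In the HDAC3 experiment, HDAC3 loss in MED23 knockout raised CCND1, CCND3, CDK6 and CDKN1C and lowered CDK4, CDKN1B and CDKN2C. That was 7 of 8 members, 4 higher and 3 lower, where 38.0% of 21139 genes were called (19.1% higher, 18.9% lower). In control cells HDAC3 loss called 4 of 8, 1 higher and 3 lower, where 42.1% were called (21.2% higher, 20.9% lower). CCND1 had 751, 770 and 771 CPM in the double knockout, against 422, 424 and 417 CPM in MED23 knockout. This was 182% of the MED23 knockout level (log2 fold change 0.86 ± 0.038, adjusted p = 5.0e-14). HDAC3 loss alone left CCND1 at 505, 479 and 475 CPM, against 496, 492 and 478 CPM in control cells, where the libraries overlapped (-0.01 ± 0.038, adjusted p = 0.93). The difference of the 2 responses of CCND1 was 0.87 ± 0.053 (adjusted p = 7.6e-11).

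CDK6 had 462, 489 and 542 CPM in the double knockout, against 372, 395 and 401 CPM in MED23 knockout (log2 fold change 0.36 ± 0.051, adjusted p = 7.7e-06). With HDAC3 loss alone it had 278, 253 and 263 CPM, against 416, 417 and 426 CPM in control cells (-0.67 ± 0.051, adjusted p = 4.0e-10). HDAC3 loss thus moved CDK6 in opposite directions in the 2 backgrounds, with a difference of 1.02 ± 0.072 (adjusted p = 6.2e-10). CDKN1C had 11.7, 13.2 and 10.9 CPM in the double knockout, against 9.77, 11.2 and 9.16 CPM in MED23 knockout. These libraries overlapped, and the log2 fold change of 0.25 ± 0.090 (adjusted p = 0.033) lost its call without MED23 knockout replicate 1 or 3 or double knockout replicate 1 or 2 (adjusted p of 0.051 to 0.20). With HDAC3 loss alone CDKN1C had 5.33, 5.48 and 4.64 CPM, against 15.6, 14.3 and 14.4 CPM in control cells. It stood at 34.8% of the control level (-1.52 ± 0.095, adjusted p = 1.1e-11), and the difference of the responses was 1.77 ± 0.131 (adjusted p = 1.3e-09). The melanoma markers together gave 1438 CPM in HDAC3 knockout and 1012 CPM in control cells.

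CDKN1B had 44.1, 44.2 and 45.0 CPM in the double knockout, against 55.8, 63.7 and 61.3 CPM in MED23 knockout (log2 fold change -0.44 ± 0.055, adjusted p = 1.2e-06). CDKN2C had 50.7, 45.8 and 45.0 CPM in the double knockout, against 67.0, 69.2 and 68.6 CPM in MED23 knockout (-0.53 ± 0.051, adjusted p = 2.0e-08). Neither was called with HDAC3 loss in control cells, although CDKN1B was without HDAC3 knockout replicate 1 (0.15, adjusted p = 0.041). For CDKN1B and CDKN2C the differences of the responses were -0.55 ± 0.078 for CDKN1B and -0.51 ± 0.072 for CDKN2C (adjusted p = 1.4e-05 each). CDK4 changed by -0.14 in MED23 knockout (adjusted p = 0.015) and by -0.19 in control cells (adjusted p = 0.0014). The first of these lost its call without MED23 knockout replicate 1 or 2 or double knockout replicate 3, with an adjusted p of up to 0.084. CCND3 rose by 0.21 and 0.29 in MED23 knockout and control cells, and CDKN2D was called in neither. In all, 5 of 8 responses differed, 3 upward and 2 downward, where 20.5% of genes did (10.0% upward, 10.5% downward).

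The double knockout against control cells called 5 of 8 members, 2 higher and 3 lower, where 36.6% of genes were called (18.2% higher, 18.4% lower). CCND1 was higher by 0.65 ± 0.038 (adjusted p = 8.9e-12) and CDK6 by 0.25 ± 0.051 (adjusted p = 5.3e-04). CDKN1C (-0.31 ± 0.088), CDKN2C (-0.18 ± 0.051) and CDK4 (-0.18 ± 0.045) were lower, and the call of CDKN1C was lost without double knockout replicate 3 (adjusted p = 0.051). Of the 15 pathway genes, HDAC3 loss raised 8 and lowered 3 in MED23 knockout, and raised 3 and lowered 7 in control cells. CDKN1A was the highest in both, at log2 fold changes of 1.23 and 1.46.

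**Figure D4:**
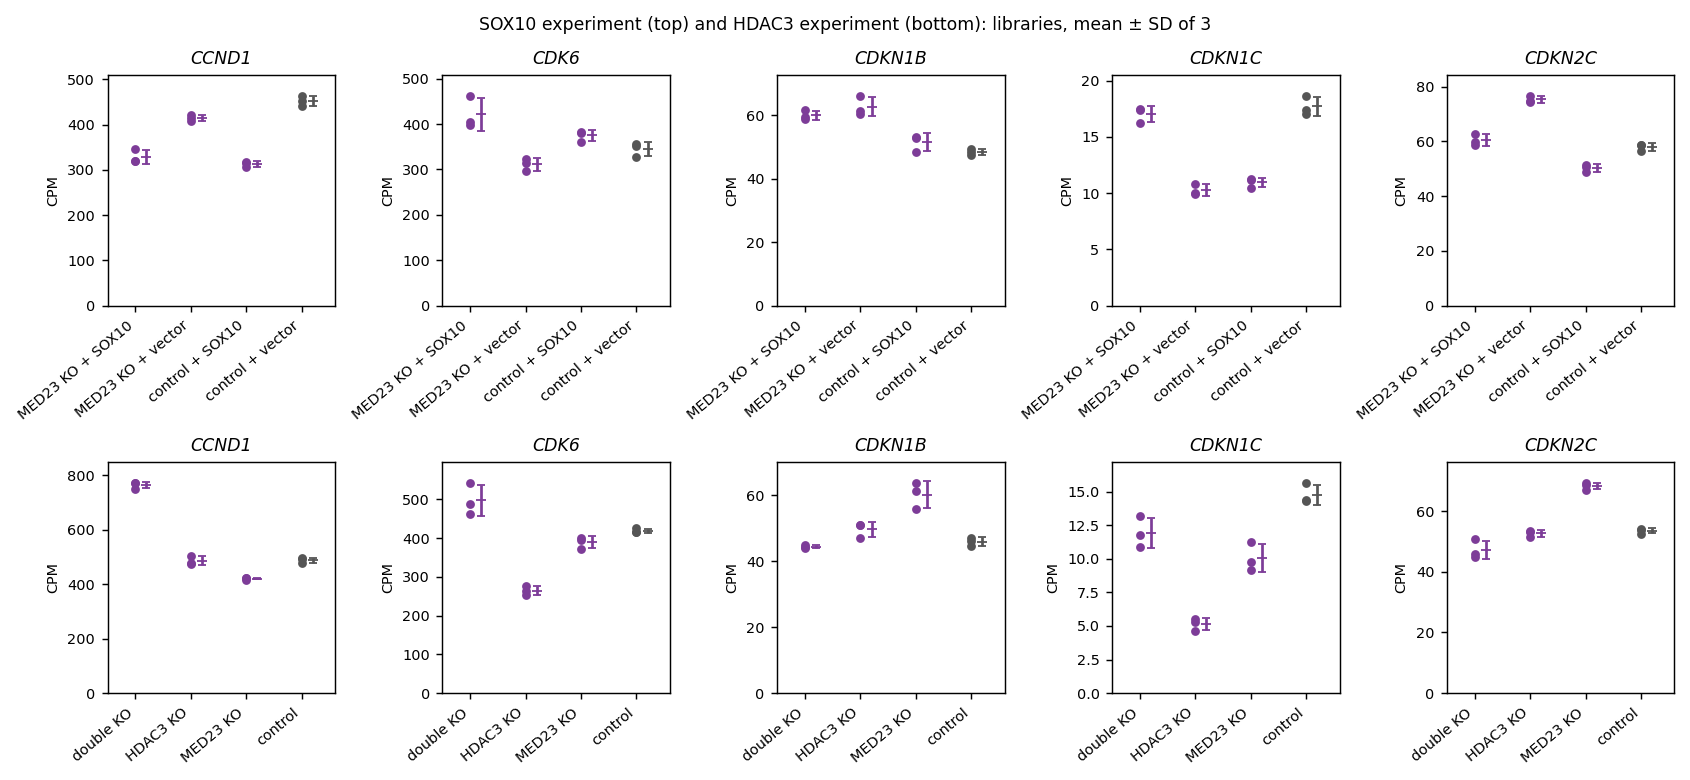
CPM of 5 members in each library of the SOX10 experiment (top) and the HDAC3 experiment (bottom); points are libraries, and the marks beside them mean ± SD of 3. CCND1 stands at 751 to 771 CPM in the double knockout, and CDKN1C at 4.64 to 5.48 CPM in HDAC3 knockout.

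Each of the 3 experiments had its own control libraries for MED23 loss. MED23 loss was measured in DMSO for 24 h in the Mediator experiment, and the labels of the other 2 give no drug or time. With empty vector it called 7 of 8 members, 2 higher and 5 lower, where 43.4% of genes were called (21.2% higher, 22.3% lower), and in the HDAC3 experiment 4 of 8, 2 higher and 2 lower, where 24.3% were called (12.3% higher, 12.0% lower). CDKN1B changed by 0.34, 0.38 and 0.39 on the log2 scale in the Mediator, SOX10 and HDAC3 experiments. CDKN2C changed by 0.39, 0.38 and 0.35, CDKN1C by -1.12, -0.79 and -0.56, and CCND1 by -0.19, -0.13 and -0.21. These 4 members were called in each. CDK6 was called in the first 2 (-0.31 and -0.15) and missed the threshold in the HDAC3 experiment (-0.11 ± 0.051, adjusted p = 0.14, or 0.025 with only the groups compared in the fit). The call of CDK4 with empty vector (-0.11 ± 0.041, adjusted p = 0.027) was lost without any 1 of 5 of the 6 libraries (adjusted p of 0.052 to 0.13). The call of CDK6 with empty vector was lost without MED23 knockout replicate 2 (adjusted p = 0.063) and with the DESeq2 Wald test (adjusted p = 0.069). Whether the size of the CDK6 change differs between the experiments was not tested.

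Beside SOX10 or in HDAC3 knockout, MED23 loss gave other values. With SOX10 it called 5 of 8 members, 4 higher and 1 lower, where 32.4% of genes were called (16.1% higher, 16.3% lower), with CDKN1C higher by 0.63 ± 0.064 (adjusted p = 3.4e-09). In HDAC3 knockout it called 7 of 8, 4 higher and 3 lower, where 35.5% were called (17.2% higher, 18.3% lower); the count was 4 to 6 when 1 library was left out, 4 without double knockout replicate 2. There CDKN1C was higher by 1.21 ± 0.097 (adjusted p = 1.1e-09), CDK6 by 0.91 ± 0.051 (adjusted p = 2.5e-12) and CCND1 by 0.65 ± 0.038 (adjusted p = 4.0e-12). Its calls of CDKN1B (-0.16, adjusted p = 0.026), CDKN2C (-0.16, adjusted p = 0.017) and CDKN2D (0.24, adjusted p = 0.041) were each lost without 1 of several libraries, with an adjusted p of up to 0.13. Without the low-count filter CDKN1B and CDKN2C had adjusted p-values of 0.054 there, and CDKN2C had 0.051 with only the groups compared.

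Ordered over the 14 groups of the Mediator experiment, CCND1 was lowest in control cells under vemurafenib and highest with MED19 guide 2 in DMSO (506.4 ± 2.68 CPM). Neighbours in that order overlapped in 5 of 13 pairs, among them the 2 guides of MED12 in each treatment and MED19 guide 1 with control cells in DMSO. CDK6 ran from control cells under vemurafenib to control cells in DMSO, with 6 of 13 neighbouring pairs overlapping, and CDKN2C from control cells in DMSO to control cells under vemurafenib, with 7 of 13. Control cells thus held both ends of the range for these 2 genes. CDKN1C ran from 0.989 ± 0.0422 CPM with MED12 guide 2 in DMSO to 37.4 ± 2.36 CPM in control cells under vemurafenib, with 3 of 13 pairs overlapping. CDK4 ran from 173.7 to 224.0 CPM, and 11 of 13 pairs overlapped. CDKN1B ran from 58.0 to 102.8 CPM (9 pairs), CCND3 from 21.5 to 73.8 CPM (7 pairs) and CDKN2D from 6.31 to 23.6 CPM (8 pairs).

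Over the same 14 group means of log2 CPM, which share guides and depth, CCND1 correlated with CDKN2D (Pearson r = 0.95), CDK6 (0.89) and CCND3 (0.88), and inversely with CDKN2C (-0.90). CCND3 and CDKN2D had an r of 0.94. Of 12165 genes searched, those most like each member were USP14, ACOT7 and MRPL15 for CCND1 (r of 0.996 for each), TLNRD1, KBTBD8 and TRIM35 for CCND3 (0.993, 0.992 and 0.991), and EIF3I, ASRGL1 and CTDNEP1 for CDK4 (0.988, 0.977 and 0.975). For CDK6 they were COQ3, B4GALT2 and SAC3D1 (0.979, 0.977 and 0.973), for CDKN1B CYP1A1, DENND5B and VIT (0.969, 0.964 and 0.963), and for CDKN1C AL109918.1, ERBB3 and CERS1 (0.984, 0.979 and 0.978). For CDKN2C they were VPS53, MAVS and C14orf132 (0.954, 0.950 and 0.949), and for CDKN2D STK35, RAD51D and CLIC1 (0.992, 0.992 and 0.989).

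CCND2, the third D-type cyclin, was hardly detected in these libraries. It had 84 counts over all 66 libraries, found in 22 of them, with at most 12 in 1 library. In the Mediator experiment 71 of them fell in 13 of 21 libraries under vemurafenib and 9 in 5 of 21 libraries in DMSO. The HDAC3 experiment gave 3 counts and the SOX10 experiment 1. No fold or test is given for it.

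On GRCh38 with GENCODE 29 annotation, CCND1 (ENSG00000110092) lies at chr11:69641087-69654474 and CDKN1C (ENSG00000129757) at chr11:2883213-2885773. CCND2 (ENSG00000118971), CDK4 (ENSG00000135446) and CDKN1B (ENSG00000111276) lie on chromosome 12, at chr12:4273772-4305350, chr12:57747727-57756013 and chr12:12715058-12722371. CCND3 (ENSG00000112576) lies at chr6:41934933-42050357, CDK6 (ENSG00000105810) at chr7:92604921-92836594, CDKN2C (ENSG00000123080) at chr1:50960745-50974633 and CDKN2D (ENSG00000129355) at chr19:10566462-10569059.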

How the data were processed

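Poly(A) RNA of 66 A375 libraries was measured in 3 experiments, and the authors deposited 1 table of raw read counts per gene for each. Per the submitters' processing notes, bcl2fastq, HISAT2, HTSeq and hg38 were used; for their versions and for the strand setting of counting, nothing is stated in the sources at hand. Gene symbols, positions and exon lengths came from GENCODE 29, in which 58676 of 58721 IDs were matched. Library totals had a median of 112.6 M counts in the Mediator experiment, 27.7 M in the SOX10 experiment and 68.5 M in the HDAC3 experiment.

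Each table was fitted separately over all its groups with edgeR 4.0.16 in R 4.3.3 (TMM scaling, filterByExpr with a minimum count of 10, quasi-likelihood test), and p-values were adjusted by Benjamini-Hochberg over all genes tested. A call is an adjusted p under 0.05, and the 2 guides to a subunit were weighted equally. DESeq2 1.42.0 was run as an alternative, beside other scaling, filters, guides, a replicate block and leaving out each library. The members, the lists and the tests were chosen with earlier results of these data known. Named in the text are all 9 members, the highest and lowest of the 15 pathway genes, the 3 genes most like each member (mean log2 CPM of at least 2) and the targets.

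The names of 15 columns did not equal a sample title and were matched through the other labels; in the HDAC3 experiment, 3 columns named GFP were taken as the control libraries because the other 9 name the other groups. Replicates differed by more than counting noise, so none was counted as a duplicate. Same-numbered libraries had mean correlations of deviations of 0.006 in the Mediator, 0.043 in the SOX10 and 0.214 in the HDAC3 experiment. Only for HDAC3 loss in MED23 knockout was every same-numbered pair above 0.1 (0.15 to 0.33 in 3 pairs), and there the replicate block left 7 members called. For HDAC3 loss in control cells the 3 pairs ran from 0.092 to 0.57. Different-numbered libraries of the HDAC3 experiment had a mean of -0.105. Each group was centred on its mean first, so that value mirrors the same-numbered mean and is no separate evidence. As 72.2% of same-numbered pairs in that experiment were above 0.1, pairing in its other comparisons is not excluded. The main fit did not use replicate numbers. On simulated counts, the fit recovered 100 of 100 genes changed by 1.5-fold for vemurafenib in control cells and for SOX10 in control cells, and 99 of 100 for HDAC3 loss in control cells. It also called 13, 19 and 14 unchanged genes in these 3 simulations. Few genes were changed, all well expressed, and the counts were drawn with the spread estimated by the same model. The simulation therefore cannot show how the fit does where most genes change, as with vemurafenib.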

Additional observations from a re-analysis of the deposited data

Results flagged for a closer look

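The results named here are those in which the same treatment or loss gave different effects in 2 backgrounds, by a test of the difference itself (edgeR's quasi-likelihood test, adjusted p under 0.05). Each value is a log2 difference, the effect in knockout cells minus that in control cells.

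For the response to vemurafenib, CCND1 differed by 2.47 in MED12, 0.86 in MED19 and 1.00 in MED23 knockout. CDK6 differed by 2.11, 1.36 and 1.53 in the same order of subunits, and CDKN2C by -0.79, -0.71 and -0.68. CDKN1B differed by 0.25, 0.29 and 0.32. CCND3 differed by 0.14 with MED12, -0.36 with MED19 and -0.30 with MED23, and the MED12 value lost its call without any 1 of 4 libraries. CDKN1C (0.38) and CDKN2D (0.35) differed with MED12.

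For the response to SOX10 in MED23 knockout, CDKN1C differed by 1.42, CDK6 by 0.32 and CCND1 by 0.19. The rise of SOX10 mRNA was itself unequal in the 2 backgrounds. In MED23 knockout it averaged 429.2 CPM with the construct and 246.2 CPM with empty vector, and in control cells 600.2 and 524.9 CPM. The part of this in the differences was not tested. For the response to HDAC3 loss in MED23 knockout, CDKN1C differed by 1.77, CDK6 by 1.02, CCND1 by 0.87, CDKN1B by -0.55 and CDKN2C by -0.51. CDKN1C had the largest difference of the 8 members in both of these experiments. SOX10 moved it in opposite directions in the 2 backgrounds; HDAC3 loss lowered it in control cells, and its change of 0.25 in MED23 knockout came from overlapping libraries and lost its call without any 1 of 4 of the 6 (adjusted p of 0.051 to 0.20).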

How the results depend on the processing

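Of 240 single-gene results (8 members in 30 comparisons), 237 kept their direction and side of the threshold with DESeq2's size factors in edgeR, 235 with the DESeq2 Wald test, 237 without the low-count filter and 234 with only the groups compared in the fit. With 1 library left out, 2344 of 2400 did. With the replicate block 238 did; 2 gained a call, CDKN1B with HDAC3 loss in control cells (0.11, adjusted p = 0.035) and CCND3 with MED23 loss in the HDAC3 experiment (-0.13, adjusted p = 0.033), which took both counts to 5, and the block changed no other call. In the HDAC3 experiment 72.2% of same-numbered pairs correlated above 0.1. CDK6 with SOX10 in control cells lost its call with DESeq2 (adjusted p = 0.22). Scaling moved the median of all genes by at most 0.04 (log2). Without the filter CCND2 was called in vemurafenib in MED12 and MED19 knockouts, which made 9 members called.

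Asking for a 2-fold change in addition left 4 members for vemurafenib in control cells, 2 in MED12, 3 in MED19 and 3 in MED23 knockout, where it left 29.7%, 15.7%, 25.6% and 25.6% of all genes tested. It left 1, 0 and 1 for MED12, MED19 and MED23 loss in DMSO (15.6%, 6.30% and 6.79% of genes), 3, 1 and 2 under vemurafenib (21.0%, 8.11% and 11.6%), and 2, 1 and 2 for the differences in drug response (14.7%, 5.13% and 6.35%). For MED12 against MED23, MED12 against MED19 and MED19 against MED23 it left 1, 1 and 0 in DMSO (10.3%, 9.25% and 3.84%) and 3, 1 and 0 under vemurafenib (12.1%, 12.0% and 4.36%). It left 0 for SOX10 in MED23 knockout (5.42%) and control cells (2.38%), 0 for MED23 loss with SOX10 (3.30%) or empty vector (5.51%), and 1 for their difference (1.55%). It left 0 for HDAC3 loss in MED23 knockout (6.03%), 1 in control cells (8.19%), 1 for MED23 loss in HDAC3 knockout (6.41%), 0 in its control cells (4.76%), 0 for double loss (5.00%) and 2 for the difference (3.55%).

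With 1 library left out, MED23 loss in HDAC3 knockout called 4 to 6 members against 7, and HDAC3 loss in MED23 knockout 5 to 6 against 7. With guide 2 alone, MED19 against MED23 loss under vemurafenib called 5 members against 8. In that comparison CCND1 (-0.13) and CDKN2C (0.0037) reversed with guide 2 alone and CDKN1C (-0.18) with guide 1 alone, and in DMSO CDK4 reversed (0.0144) with guide 2 alone; the cause was not tested. CCND2 had too few counts to pass the low-count filter. CDKN1C was low in MED12 knockout in DMSO, near 1 CPM, with 691 and 328 counts over 3 libraries for guides 1 and 2.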

Other observations

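Over the 18 comparisons of a drug, a loss or SOX10 with its own control, CDK4 was called in 11 and lower in each of them. CDKN1B was higher in 11 and lower in 2. CDKN1C was called in all 18, higher in 8 and lower in 10. The share of all genes called in these comparisons ran from 22.6% (SOX10 in control cells) to 70.3% (vemurafenib in MED19 knockout). In the same comparisons it ran from 11.6% to 37.7% for higher and from 11.0% to 32.6% for lower. The double knockout against control cells is not among the 18, and many of these comparisons share control libraries.

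Exons of other genes overlap those of 5 members. CCND1 shares 497 exonic bases with LTO1, which averaged 15.3 CPM under vemurafenib and 18.0 CPM in DMSO in control cells. CDK6 shares 81 exonic bases with AC002454.1, which averaged 0.120 CPM under vemurafenib and 0.438 CPM in DMSO. TSPAN31, which overlaps CDK4, differed by 1.22 ± 0.036 on the log2 scale between vemurafenib and DMSO in control cells (edgeR's quasi-likelihood test, adjusted p = 1.4e-32), while CDK4 differed by -0.20.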
